A study of Mus musculus with 3 samples.

Results

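Crystallins are the proteins that fill the lens of the eye, and 4 of their genes, Cryab, Cryaa, Crybb2 and Crygs, were described here across the cell clusters and the 3 libraries of a mouse retina experiment. They were taken by name from the 18545 genes of the matrix, and a further 18 crystallin genes in the matrix served as comparison. The study asked what a diet with 3 drugs does to the degenerating retina of rd10 mice, which carry a mutation in the rod phosphodiesterase gene Pde6b and lose their rods. All mice were 8 weeks old, of the C57BL/6J background and kept in the dark. The WT library came from mice with a normal genotype fed the base chow (female and male, by the study's methods). The rd10-vehicle library came from female rd10 mice on the same chow, and the rd10-TMB library from female rd10 mice on chow with tamsulosin, metoprolol and bromocriptine. The labels give 1 retina from each of 4 mice in each library, pooled before the cells were loaded. Each group is thus 1 library, no test between groups was possible, and every interval below is a 95% interval for counting error only.

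The libraries held 4478 WT, 5952 rd10-vehicle and 4812 rd10-TMB cells in 21 clusters, with a median of 3510, 4812 and 4772 UMIs (unique molecular identifiers, 1 per captured RNA molecule) per cell. Between 7 and 10 cell barcodes were shared by any pair of libraries. The lens was removed during dissection, yet cluster 17, named lens-like because 10 of the 11 lens markers in the matrix were raised in it, held 0 WT, 18 rd10-vehicle and 19 rd10-TMB cells. Müller glia, the radial support cells of the retina, formed cluster 0, with 10 of 10 markers raised and 530, 2492 and 1748 cells. Levels are given as CPM, the count of UMIs of a gene scaled to 1e+06 UMIs of a class of cells, and no length correction was needed because the chemistry counts 1 end of each molecule.

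Crystallins fall into an α family, which are small heat shock proteins that hold unfolding proteins in solution, and a βγ family, which give the lens its refractive index. αA-crystallin (Cryaa) is largely a lens protein. αB-crystallin (Cryab) is also made in heart, muscle and glia, and it is a stress-inducible chaperone in astrocytes and Müller glia. Crybb2 encodes the main basic β-crystallin of the adult lens, and Crygs encodes γS-crystallin of the lens cortex.

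In the mouse genome (GRCm38) Cryab spans chr9:50745951-50756636 on the plus strand, Cryaa chr17:31677931-31681730 on the plus strand, Crybb2 chr5:113058258-113070117 on the minus strand and Crygs chr16:22805203-22811410 on the minus strand. The RefSeq gene model of Cryab overlaps that of Hspb2, another small heat shock gene on the opposite strand. RefSeq promoter windows of GRCm38.p6 were matched for 3 of the 4 members but not for Cryab, and those of Cryaa, Crybb2 and Crygs are shown. Each runs 5′ to 3′ from 250 bases before to 50 bases after the start of transcription, at chr17:31677681-31677980 (plus), chr5:113070068-113070367 (minus) and chr16:22811361-22811660 (minus). Capitals mark matches to a Maf core (TGCTGA), an AP-1 site (TGANTCA), the core promoter TATA box (TATAAA) or a heat shock element (GAANNTTC or TTCNNGAA), searched on both strands.
Cryaa: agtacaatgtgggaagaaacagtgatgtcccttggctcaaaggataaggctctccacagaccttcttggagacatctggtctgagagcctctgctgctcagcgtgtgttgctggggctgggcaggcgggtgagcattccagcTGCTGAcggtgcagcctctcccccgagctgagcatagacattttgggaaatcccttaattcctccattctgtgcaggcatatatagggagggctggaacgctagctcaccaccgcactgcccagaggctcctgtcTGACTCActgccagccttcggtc
Crybb2: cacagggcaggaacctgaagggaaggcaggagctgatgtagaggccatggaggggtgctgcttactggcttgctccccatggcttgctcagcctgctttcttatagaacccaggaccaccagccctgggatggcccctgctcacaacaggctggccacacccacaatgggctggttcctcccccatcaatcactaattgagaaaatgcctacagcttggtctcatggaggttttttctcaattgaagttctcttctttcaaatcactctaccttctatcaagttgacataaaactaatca
Crygs: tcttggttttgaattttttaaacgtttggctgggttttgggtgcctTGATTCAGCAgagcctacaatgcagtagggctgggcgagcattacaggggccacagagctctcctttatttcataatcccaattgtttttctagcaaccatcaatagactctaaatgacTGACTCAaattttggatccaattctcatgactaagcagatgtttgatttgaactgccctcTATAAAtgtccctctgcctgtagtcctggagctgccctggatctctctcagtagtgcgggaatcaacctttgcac
The Maf core, bound by the large Maf factors of lens fibre cells, stood in the windows of Cryaa and Crygs and in 19.5% of all 32851 promoter windows. In Crygs it lay on the minus strand and overlapped 1 of the 2 AP-1 matches. An AP-1 match was present in Cryaa and Crygs, and in 7.81% of all windows. The exact letters TATAAA were present in Crygs alone among these 3, and in 13.6% of all windows. Variants such as TATATA, which stands in the Cryaa window, were not searched. None of the 3 windows held a heat shock element, whose 2 forms occurred in 7.86% and 8.52% of all windows. The Crybb2 window held none of these letters.

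Most Cryab outside the lens-like cells was in Müller glia in all 3 libraries. The Müller glia-like cells held 3831 Cryab UMIs (WT), 49211 (rd10-vehicle) and 38793 (rd10-TMB), which were 1154, 2217 and 2312 CPM. Both rd10 libraries lay above WT and close to each other. The level of rd10-vehicle was 1.92 times (1.86 to 1.99) that of WT, the level of rd10-TMB 2.0 times (1.94 to 2.07) that of WT, and the TMB level 1.04 times (1.03 to 1.06) the vehicle level. On the log2 scale with 1 UMI added per library these differences were 0.94, 1.0 and 0.061. Among all genes with at least 50 UMIs in the 2 libraries compared, the Cryab difference stood at percentile 95.5 for rd10-vehicle against WT, at percentile 96.9 for rd10-TMB against WT and at percentile 70.5 for rd10-TMB against rd10-vehicle. The median of all these genes was -0.057, -0.076 and -0.023.

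The higher level was seen from the low to the high end of the distribution over cells. The median Müller glia-like cell held 6 (WT), 15 (rd10-vehicle) and 16 (rd10-TMB) Cryab UMIs, and the range from the 5th to the 95th percentile was 0 to 21, 3 to 51 and 3 to 60 UMIs. As CPM of the single cell, the lower quartiles of the WT, rd10-vehicle and rd10-TMB libraries were 509.5, 1196 and 1156, against medians of 909.5, 1794 and 1864. The lower quartile of each rd10 library was thus above the WT median, while the 5th percentiles of 618 and 566 lay below it. Depth differed with the groups, since these cells had a median of 6300, 8594 and 9454 UMIs. After thinning each cell to 1000 UMIs, the shares of cells with Cryab were 58.3%, 81.3% and 79.9%, where 93.8%, 99.5% and 98.7% had it before thinning. The thinned log2 differences from WT were 0.99 and 1.06. The WT library also held male cells. Against only the 245 Müller glia-like WT cells carrying Xist but no Y-linked UMI, the differences were 1.03 and 1.09.

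**Figure D1:**
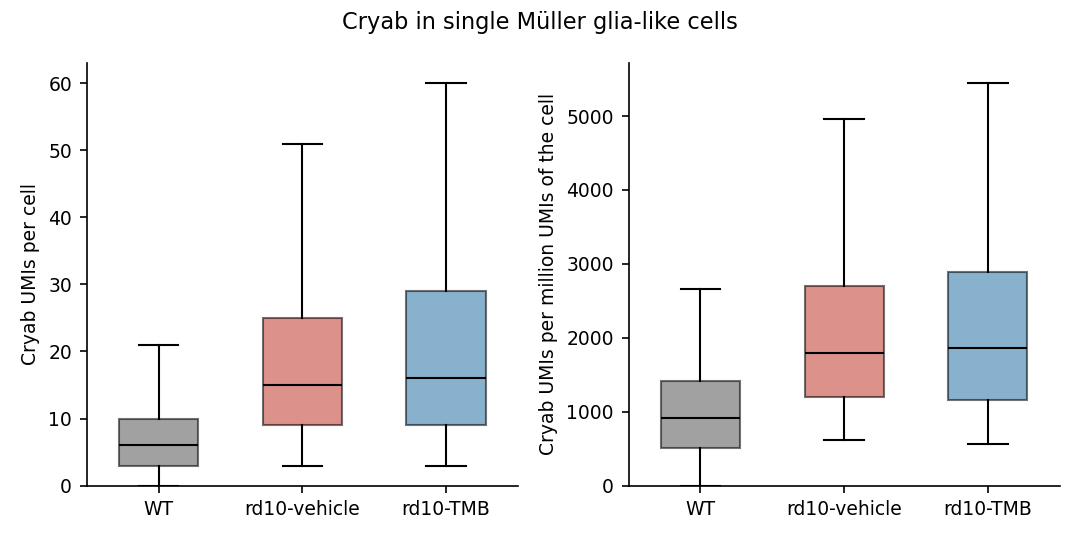
Cryab in single Müller glia-like cells of the 3 libraries (530, 2492 and 1748 cells), as UMIs per cell on the left and as CPM of the cell on the right. Boxes run from the 25th to the 75th percentile with a line at the median, whiskers reach the 5th and 95th percentiles. The 2 rd10 boxes cover nearly the same range and meet the WT box only at its upper end, with medians of 15 and 16 UMIs against 6.

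Within the glia, Cryab was higher in cells that carried RNA of Lcn2 or of Gfap, 2 genes of reactive gliosis. Lcn2 encodes lipocalin 2, a secreted protein induced in inflamed glia, and Gfap encodes the intermediate filament of astrocytes and reactive Müller glia. Cells with at least 1 Lcn2 UMI had 2466 Cryab CPM in rd10-vehicle (653 cells) and 2627 in rd10-TMB (300 cells), and cells without it had 2091 and 2212, a ratio of 1.18 (1.16 to 1.20) and 1.19 (1.16 to 1.22). The WT ratio was 1.56 (1.33 to 1.82) but rested on 9 cells with Lcn2. Cells with Gfap had 1.20-fold the Cryab CPM of cells without it in rd10-vehicle and 1.10-fold in rd10-TMB, and 1.34-fold in WT, where 17 cells had Gfap. The cells with these RNAs were deeper (a median of 10153 against 8175 UMIs for Lcn2 in rd10-vehicle). After thinning the Lcn2 ratios were 1.18 and 1.17 and the Gfap ratios 1.20 and 1.05 in rd10-vehicle and rd10-TMB. For Gfap in rd10-TMB the thinned shares of cells with Cryab had overlapping intervals, at 83.3% (79.5 to 86.6) with Gfap and 78.6% (76.3 to 80.9) without it. The Cryab level of cells without Lcn2 was still above the 1135 CPM of such cells in WT.

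Outside the Müller glia-like cells, Cryab formed a graded series. The other classes with a level over 500 CPM in at least 1 library were, besides lens-like cells, astrocyte-like cells, retinal pigment epithelium-like cells, mural-like cells, the small cluster 18 and the microglia-like cells of rd10-vehicle. Astrocyte-like cells, named from 6 of 8 markers, had 636 CPM (552 to 729) in WT, 528 (491 to 567) in rd10-vehicle and 509.5 (452 to 572) in rd10-TMB, from 20, 88 and 33 cells. Here both rd10 libraries lay below WT, by 0.27 and 0.32 on the log2 scale, opposite in sign to the Müller glia-like cells. Retinal pigment epithelium-like cells had 560, 1196 and 828 CPM from 13, 35 and 16 cells, and the intervals of rd10-TMB overlapped those of both other libraries. Mural-like cells had 287, 449 and 616 CPM from 20, 25 and 22 cells. In rd10-TMB 1 of the 22 held 15 of the 45 Cryab UMIs together with 38 UMIs of Cryaa, Crybb2 and Crygs, and without it the level was 448 CPM, 0.62 (-0.23 to 1.55) on the log2 scale above WT. Cluster 18, led by Crhbp, Gpx3 and Fbln1, had 1294 CPM in the 23 cells of rd10-vehicle. The microglia-like value of 688 CPM in rd10-vehicle rested on 1 of 52 cells, which held 213 of the 222 UMIs.

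Neurons held little Cryab in WT and more in the rd10 libraries. In rod-like cells there were 15 Cryab UMIs in 1180 WT cells, 71 in 556 rd10-vehicle cells and 107 in 746 rd10-TMB cells, which were 8.34, 82.5 and 84.7 CPM. Cone-like cells had 5.61, 49.5 and 35.9 CPM, and rod bipolar-like cells 3.05, 56.2 and 35.2. Cluster 7 was the exception, with 59.6, 73.9 and 37.4 CPM and overlapping intervals for WT and both rd10 libraries. Endothelial-like cells of the WT, rd10-vehicle and rd10-TMB libraries had 39.4, 103 and 87.4 CPM. In the neuron-like clusters 1 to 10 summed, 90 Cryab UMIs were found in 3694 WT cells, 573 in 3047 rd10-vehicle cells and 440 in 2829 rd10-TMB cells. A Müller glia-like cell held 297 times (241 to 370) the Cryab of a cell of these neuron-like clusters in WT, and 105 and 143 times in rd10-vehicle and rd10-TMB, after leaving out the 2 exceptional cells described further on.

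**Figure D2:**
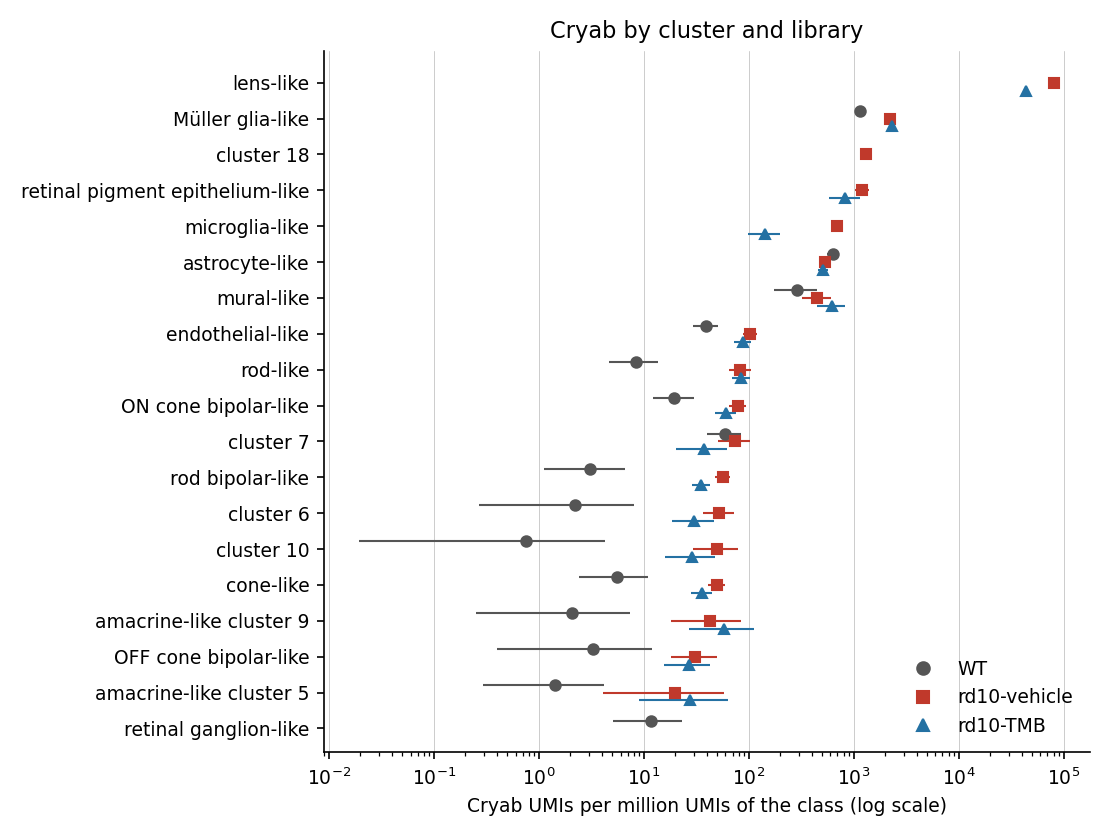
Cryab CPM (log scale) in each cluster with at least 15 cells in a library and at least 1 Cryab UMI, by library. Bars are 95% counting intervals. Lens-like cells lie highest, Müller glia-like cells follow at 1154, 2217 and 2312 CPM, and in most neuron-like clusters the WT points lie at or below 19.6 CPM with the rd10 points at 19.9 to 84.7 CPM. The rd10-vehicle microglia-like point rests on 1 cell.

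Counting over whole libraries mixed these sources. The 3 whole libraries held 4244, 91042 and 44252 Cryab UMIs. The 18 lens-like cells supplied 39444 of the rd10-vehicle UMIs, or 43.3%, and the 19 lens-like cells of rd10-TMB supplied 4418, or 9.98%. With all cells, Cryab was 10.9-fold and 6.74-fold above WT in rd10-vehicle and rd10-TMB, and it fell by 0.70 on the log2 scale from rd10-vehicle to rd10-TMB. Outside the lens-like cluster the levels were 225, 1413 and 1369 CPM, the ratios to WT 6.29 and 6.09, and the log2 difference between the rd10 libraries -0.045 (-0.064 to -0.026). Müller glia-like cells were 11.8%, 42.0% and 36.5% of these cells, and they held 90.3%, 95.4% and 97.4% of the Cryab UMIs.

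The lens-like cells of the 2 libraries were unlike each other. In rd10-vehicle they held 74 to 6570 Cryab UMIs per cell with a median of 1894, and 15 of 18 had at least 1000. In rd10-TMB they held 1 to 2221 with a median of 15, and 13 of 19 had fewer than 20, while the 2 highest cells held 73.8% of the Cryab UMIs. Cryab and 12 lens crystallin genes, the other members among them, made up 5.29% to 31.8% of the UMIs of a cell in rd10-vehicle and 0.359% to 65.7% in rd10-TMB. The rd10-vehicle cells were also larger, with a median of 20634 against 3556 UMIs. In rd10-vehicle each cell showed at least 6 of the lens markers, whereas 3 of the rd10-TMB cells showed none and 4 had under 1% crystallin UMIs. The name lens-like thus has marker support in each rd10-vehicle cell but not in each rd10-TMB cell. Müller glia markers were found in these cells as well. Summed over the 10 markers of that list, at least 100 UMIs were present in 16 of the 18 cells from rd10-vehicle (range 3 to 1998) and in 6 of the 19 from rd10-TMB (0 to 562), and the class levels were 33.5% and 42.3% of the CPM of Müller glia-like cells. The list was not evenly present. Clu and Vim, a secreted chaperone and an intermediate filament, had 7087 and 4018 CPM in the lens-like cells of rd10-vehicle against 6757 and 1202 in its Müller glia-like cells, whereas the water channel gene Aqp4 had 91.2 against 1287 and was seen in 10 of the 18 cells. In rd10-TMB Aqp4 had 297 against 1193 CPM and was seen in 6 of the 19 cells. The part of glial RNA in the Cryab of the lens-like cells was not tested.

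The mix of crystallins in these cells differed too. Cryaa made up 24.6% of the UMIs of Cryaa, Crybb2 and Crygs in the lens-like cells of rd10-vehicle and 48.3% in rd10-TMB, and Crygs made up 52.2% and 21.8%. Cryab exceeded the sum of these 3 genes in rd10-vehicle, at 1.79 (1.76 to 1.82) UMIs per UMI, and was below it in rd10-TMB, at 0.69 (0.67 to 0.72). The ratio of Cryab to Cryaa ranged from 0.49 to 32.3 over the single rd10-vehicle cells and from 0.2 to 10 over the rd10-TMB cells. As CPM of the lens-like class, Cryaa was at 11232 (rd10-vehicle) and 30612 (rd10-TMB), Crybb2 10597 and 18970, Crygs 23804 and 13794, and Cryab 81738 and 43811. Cryaa and Crybb2 were thus higher in the rd10-TMB class as a whole, and Crygs and Cryab lower. The higher values rested on 4 of the 19 rd10-TMB cells, which held 2876 of the 3087 Cryaa and 1657 of the 1913 Crybb2 UMIs. These 4 cells were picked by their UMIs of the 4 members, and in rd10-TMB alone, so the levels without them fall by construction. The other 15 cells had Cryaa at 4177 CPM, Crybb2 at 5068, Crygs at 3267 and Cryab at 6652. Since no rd10-vehicle cell was left out, these values do not compare the 2 classes.

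**Figure D3:**
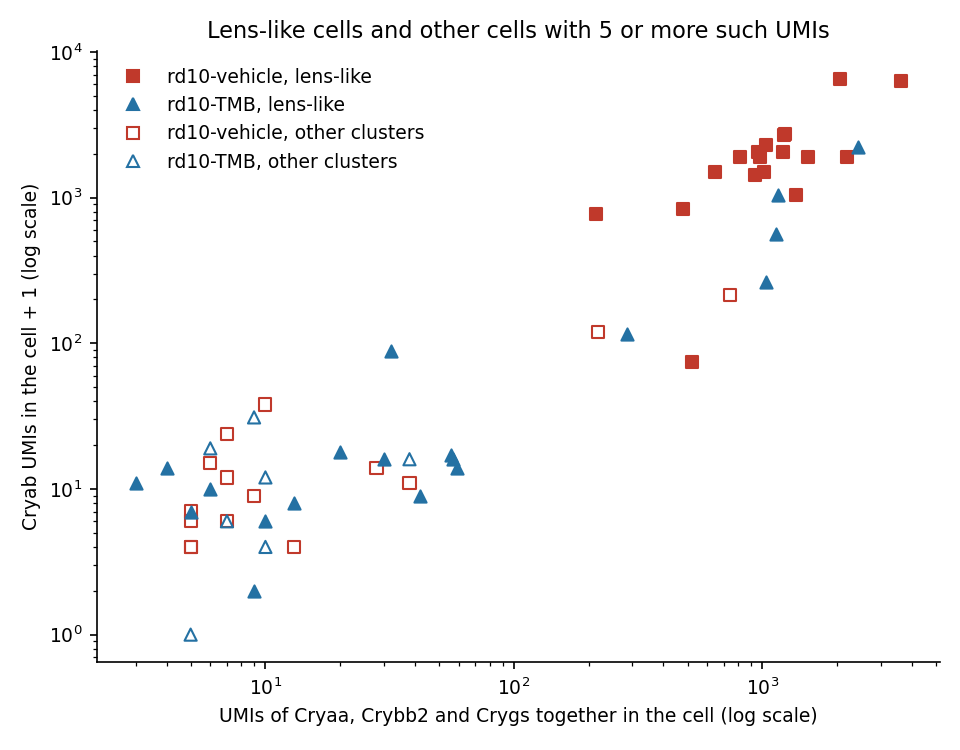
Cryab UMIs plus 1 against the summed UMIs of Cryaa, Crybb2 and Crygs in single cells, both on log scales. Filled marks are the 18 rd10-vehicle and 19 rd10-TMB lens-like cells, open marks the 22 cells of other clusters with at least 5 such UMIs. The rd10-vehicle lens-like cells gather at the upper right, most rd10-TMB lens-like cells lie at the lower left, and 2 open rd10-vehicle marks lie among the lens-like cells at over 100 such UMIs.

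Cryaa, Crybb2 and Crygs were lens transcripts first, and their remainder was 1 or a few UMIs in most cells that had any and many in a few cells. The lens-like cells held 88.4% of the Cryaa UMIs of rd10-vehicle and 93.8% of those of rd10-TMB, 89.0% and 87.0% of Crybb2, and 96.3% and 86.4% of Crygs. Outside that cluster, Cryaa had 4, 712 and 205 UMIs in the WT, rd10-vehicle and rd10-TMB libraries. Crybb2 had 12, 633 and 286 UMIs, and Crygs had 2, 439 and 219. The WT library, which held no lens-like cell, thus had 18 UMIs of the 3 genes in 4478 cells, and 99.6% of its cells had none. In the rd10 libraries 89.6% and 88.8% of the cells outside the lens-like cluster had none, and most of the others had 1.

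A pair of cells carried most of this remainder in rd10-vehicle. A microglia-like cell with 11370 UMIs held 352 Cryaa, 239 Crybb2, 149 Crygs and 213 Cryab UMIs together with 277 UMIs of 8 of 8 microglia markers. A Müller glia-like cell with 6981 UMIs held 91 Cryaa, 87 Crybb2, 40 Crygs and 119 Cryab UMIs. The 2 cells held 958 of the 1784 UMIs of Cryaa, Crybb2 and Crygs outside the lens-like cluster, or 53.7%, and both also carried RNA of other lens genes (22 and 20 lens marker UMIs). Doublets had been removed by the authors before deposit, and whether these 2 cells are doublets that remained was not tested.

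All 4 members were at least 2-fold higher outside the lens-like cluster in each rd10 library than in WT, where 10.8% of 15099 genes were so in rd10-vehicle and 7.68% of 14747 in rd10-TMB. The log2 differences from WT were 6.20 (5.16 to 8.40) for Cryaa, 4.66 (3.95 to 5.73) for Crybb2 and 6.24 (4.96 to 9.88) for Crygs in rd10-vehicle, and 4.74, 3.84 and 5.57 in rd10-TMB. Without the 2 cells the rd10-vehicle values were 4.8, 3.62 and 5.44. The log2 differences of rd10-TMB from rd10-vehicle were -1.46 (-1.70 to -1.24), -0.82 (-1.02 to -0.61) and -0.67 (-0.92 to -0.44), and only Cryaa was past 2-fold, where 1.73% of 15122 genes were at least 2-fold lower. Without the 2 cells these differences were -0.063 (-0.33 to 0.20), 0.23 (-0.012 to 0.46) and 0.14 (-0.13 to 0.40), so the lower values of rd10-TMB rested on 2 cells.

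Across cell types the number of UMIs of the 3 lens genes per cell varied less than depth did. In the 9 clusters other than Müller glia-like cells with at least 50 cells in every library, their summed UMIs per 100 cells ranged from 7.56 to 16.6 in rd10-vehicle, from 7.24 to 14.1 in rd10-TMB and from 0 to 1.23 in WT. Median UMIs per cell in these clusters ran from 1406 to 9718 in rd10-vehicle. The highest rd10-vehicle value, that of rod bipolar-like cells, rested on 3 cells that held 48 of the 121 UMIs, and without them it was 10.1 (7.88 to 12.6). Without cells of 5 or more such UMIs, a limit chosen after the data were seen, the 9 clusters ranged from 6.74 to 12.8 in rd10-vehicle and from 5.74 to 13.8 in rd10-TMB. The cells were left out by these same UMIs, so the sums fall by construction. Rod-like cells, the shallowest, had 10.4 (7.92 to 13.5) and 14.1 (11.5 to 17) such UMIs per 100 cells in rd10-vehicle and rd10-TMB, and endothelial-like cells, the deepest, had 12.8 (7.83 to 19.8) and 10 (4.8 to 18.4). Müller glia-like cells had 15.8 (14.3 to 17.4) without the cell described above and 15.9 (14.1 to 17.9), and 0.19 in WT. At least 1 such UMI was found in 12.6% of Müller glia-like cells and in 12.2% of endothelial-like cells of rd10-vehicle, at medians of 8594 and 9718 UMIs.

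Each gene alone was compared between glia and neurons. Without the 2 cells, Cryaa had 4.78 UMIs per 100 Müller glia-like cells and 4.23 per 100 cells of the neuron-like clusters in rd10-vehicle, and 4.23 and 3.89 in rd10-TMB, ratios of 1.13 (0.87 to 1.46) and 1.09 (0.80 to 1.48). Crygs gave ratios of 1.15 (0.89 to 1.5) and 1.13 (0.84 to 1.52). Crybb2 stood a little higher in glia, at 6.38 against 4.23 and 6.98 against 4.84 UMIs per 100 cells, ratios of 1.51 (1.19 to 1.92) and 1.44 (1.12 to 1.85). The ratios near 1 in rd10-vehicle depended on a few neuron-like cells. With all cells of 5 or more UMIs of the 3 genes left out on both sides, Cryaa, Crygs and Crybb2 stood at 1.52 (1.14 to 2.05), 1.37 (1.02 to 1.82) and 1.69 (1.30 to 2.22) there, and at 1.08 (0.79 to 1.49), 1.15 (0.85 to 1.56) and 1.32 (1.01 to 1.72) in rd10-TMB. In the Müller glia-like cells of WT, Cryaa had 1 UMI, Crybb2 0 and Crygs 0 in 530 cells. A count of 0 was taken to allow up to 3 cells with a UMI, or 0.566%, and its exact interval reaches 0.694%. Against a floor of 3 UMIs in WT, Crybb2 was at least 7.93-fold higher in the Müller glia-like cells of rd10-vehicle without the 1 cell described above, which held 87 of the 246 UMIs, and at least 8.05-fold higher in those of rd10-TMB. With that cell the bound for rd10-vehicle was 12.3-fold. Within Müller glia-like cells 3 of 4 members were at least 2-fold higher in rd10-vehicle than in WT and 4 of 4 in rd10-TMB, where 4.84% and 3.57% of genes were. The counts of 3 and 4 differ by Cryab alone, whose log2 differences of 0.94 and 1.0 lie on either side of that threshold and cross it with the processing (0.90 to 1.45 and 0.998 to 1.62 over the alternatives, with 1.01 and 1.09 under median-of-ratios size factors). Between the rd10 libraries 1 of 4 was at least 2-fold lower in rd10-TMB, where 0.361% of genes were, and that gene, Cryaa, differed by -0.27 (-0.72 to 0.15) without the 1 glial cell.

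The number of Cryab UMIs per UMI of the other members set the glial clusters apart, but in rd10-vehicle it did not separate lens-like from neuron-like cells. Lens-like cells had 1.79 in rd10-vehicle and 0.69 in rd10-TMB. Rod-like cells had 1.22 (0.85 to 1.76) and 1.02 (0.77 to 1.35), and rod bipolar-like cells 1.21 (0.95 to 1.56) and 1.04 (0.77 to 1.41). Cone-like cells had 3.10 (2.16 to 4.52) and 1.37 (0.96 to 1.96), both above the lens-like value of their library. The neuron-like clusters 1 to 10 together had 1.51 (1.32 to 1.72) and 1.21 (1.05 to 1.39). A few cells weighed on the rd10-vehicle values. Without the 7 neuron-like cells of rd10-vehicle with 5 or more UMIs of the 3 genes, which held 101 such UMIs and 45 Cryab UMIs, the summed value was 1.89 (1.63 to 2.20), on the other side of the lens-like value with intervals that overlapped, and that of rod bipolar-like cells was 1.73 (1.28 to 2.34). In rd10-TMB, where 3 such cells were left out, the summed value was 1.26 (1.09 to 1.46), and it lay above the lens-like interval with and without them. Müller glia-like cells had 125 (113 to 138) without the 1 cell and 139.5 (124 to 158), and astrocyte-like cells had 67.5 (37.5 to 136) and 95.7 (32.4 to 467). Endothelial-like cells stood between, at 9.30 (5.85 to 15.6) and 11 (5.76 to 23.6). In WT Müller glia-like cells 3831 Cryab UMIs stood beside 1 UMI of the other 3 genes. In neuron-like cells of the rd10 libraries, UMIs of Müller glia markers were present as well, at 2.10 and 1.87 per cell against 1.27 in WT. The part of either RNA in the Cryab of neurons was not tested.

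**Figure D4:**
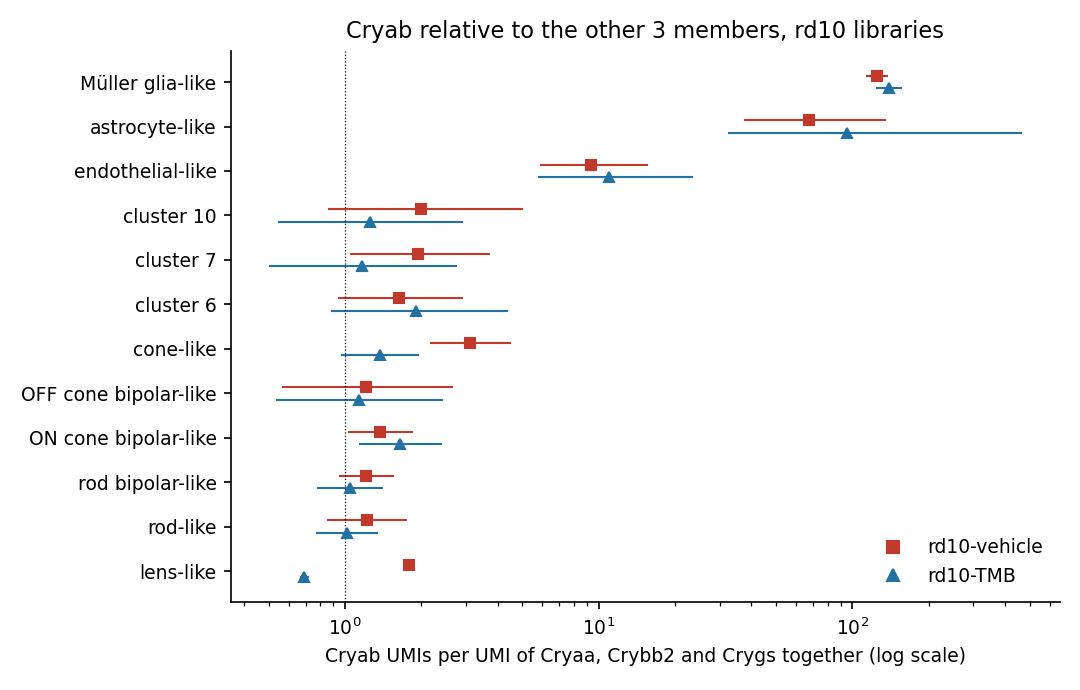
Cryab UMIs per UMI of Cryaa, Crybb2 and Crygs together (log scale) in 12 classes of the 2 rd10 libraries, with 95% counting intervals, the Müller glia-like class without its 1 cell of over 100 lens crystallin UMIs. Neuron-like classes lie at 1.21 to 3.10 in rd10-vehicle and 1.02 to 1.91 in rd10-TMB, lens-like cells at 1.79 and 0.69, and the 2 glial classes at 67.5 or above.

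The Cryab difference of Müller glia was recomputed with cells or UMIs that carried crystallin RNA taken out. Leaving out all Müller glia-like cells with any UMI of the 12 lens crystallin genes (Cryaa, Crybb2, Crygs and 9 others, Crybb1 and Crybb3 among them) removed 14%, 37.9% and 37.0% of the cells, and the log2 differences from WT were then 0.98 in rd10-vehicle and 1.02 in rd10-TMB. Crybb1 and Crybb3 were present in WT glia, at 41 UMIs each, where no lens-like cell was present, so this setting was not a removal of lens RNA alone. Without cells carrying any of the other 10 genes, a setting chosen after these values were seen, which removed 0.94%, 16.6% and 22.0% of the cells, the differences were 0.95 and 1.0. Subtracting the Cryab that the Cryaa count would bring at the lens-like ratio (7.28 and 1.43 Cryab per Cryaa) gave 0.90 and 1.0. Leaving out the 1 cell of over 100 such UMIs gave 0.94 for rd10-vehicle. The difference between the rd10 libraries was 0.039 and 0.10 in the setting with all 12 genes and after the subtraction.

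The other crystallin genes split along the same line, with 2 βγ members on the glial side. All 18 of the list in the matrix had at least 20 UMIs, and 13 of them had 50 UMIs in the 2 rd10 Müller glia-like samples. Of the 10 with 50 UMIs for rd10-vehicle against WT, 3 were at least 2-fold higher (4.84% of all genes were) and 1 lower (2.47%), with a median log2 difference of 0.080 against -0.057 over all genes. Of the 8 for rd10-TMB against WT, 1 was higher (3.57% of all genes) and 0 were lower (1.77%). Crybb1 stood at the lower threshold there, with a log2 difference of -1.02 with 1 UMI added and a ratio just short of 2-fold without it. Of the 13 between the rd10 libraries, 2 were higher in rd10-TMB (0.169% of all genes) and 0 lower (0.361%). Without the 1 exceptional glial cell, which held 53 of the 102 Cryba1 UMIs of rd10-vehicle, 2 of 9 were higher and 1 lower for rd10-vehicle against WT, and 3 of 13 were higher for rd10-TMB between the rd10 libraries. Cryba1, Cryba2 and Cryba4, further β-crystallins of the lens, and Crygb, Crygc and Crygd, γ-crystallins of lens fibres, had 0.75 to 1.63 times as many UMIs per Müller glia-like cell as per neuron-like cell in the rd10 libraries. Crygb, Crygc and Crygd are close copies of each other, reads may be split between them, and their single values are uncertain. Their totals were larger for rd10-TMB, with 405 against 226 Crygb, 367 against 160 Crygc and 293 against 118 Crygd UMIs in all cells, the reverse of Crygs with 1610 against 11926.

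Crybb3, a basic β-crystallin, had more UMIs in Müller glia-like than in neuron-like cells by the same measure. Müller glia-like cells had 41, 891 and 408 UMIs in the WT, rd10-vehicle and rd10-TMB libraries, or 12.3, 40.1 and 24.3 CPM. Per cell this was 18.9 (14.4 to 25.1) and 10.7 (8.14 to 14.1) times the neuron-like level in rd10-vehicle and rd10-TMB, and 6.49 (4.14 to 10.2) times in WT. Müller glia-like cells held 83.0% and 81.8% of its UMIs outside the lens-like cluster in the rd10 libraries but 35.0% of the 117 in WT, where amacrine-like cluster 5 held 37 and endothelial-like cells 26. Its glial level was highest in rd10-vehicle, with log2 differences of 1.67 (1.25 to 2.19) for rd10-vehicle over WT, 0.95 for rd10-TMB over WT and -0.72 (-0.90 to -0.55) for rd10-TMB over rd10-vehicle. Crybb1 was the opposite, with 12.3 CPM in WT Müller glia-like cells, 5.54 in rd10-vehicle and 6.20 in rd10-TMB, and 0 UMIs in the 3694 neuron-like cells of WT. The gene models of Crybb1 and Cryba4 overlap on opposite strands. Crym, a thyroid hormone binding protein named as a crystallin for its place in marsupial lenses, was in glia too. It had 829, 1558 and 1209 CPM in Müller glia-like cells, which held 97.6%, 98.8% and 98.8% of its UMIs, and its log2 difference between rd10-TMB and rd10-vehicle was -0.37. Crym is 1 of the 10 markers by which this cluster was named, so its place there is partly given by the naming. The enzyme-type crystallins Cryz, Cryzl1, Cryzl2 and Cryl1 differed from WT by -0.15 to 0.10 (log2) in Müller glia-like cells, with intervals that held 0. Crybg3, a large βγ-domain protein, was in neurons and endothelium instead, with 92.0 to 126 CPM in cone-like cells and 2.11 to 2.43 in Müller glia-like cells.

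Lens markers outside the crystallins divided likewise. Gja3, Lim2 and Mip, which encode gap junction and membrane proteins of lens fibres, had 0 to 7 UMIs each in the Müller glia-like cells of any library without the exceptional cell. Bfsp2, a beaded filament gene, had 21, 148 and 111 UMIs there, and Grifin, a lens galectin, had 11, 95 and 70. Their ratios of Müller glia-like over neuron-like cells were 45.3 and 44.9 for Bfsp2 and 29.1 and 22.7 for Grifin in rd10-vehicle and rd10-TMB, and both genes were found in WT glia, where no lens-like cell was present.

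**Figure D5:**
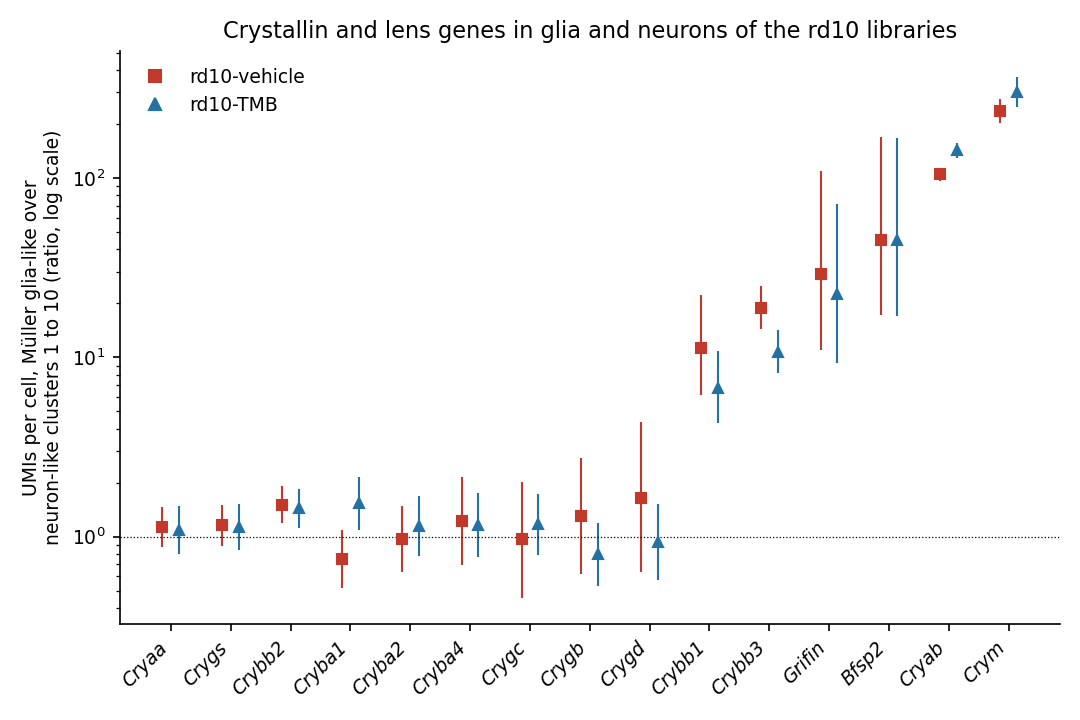
Ratio of UMIs per cell in Müller glia-like cells to that in neuron-like clusters 1 to 10 (log scale) for crystallin genes and the lens genes Grifin and Bfsp2 in the 2 rd10 libraries, without the 2 cells of over 100 lens crystallin UMIs. Bars are 95% counting intervals and the dotted line marks 1. Cryaa, Crygs, Crybb2 and 6 other lens crystallins lie at 0.75 to 1.63, while Crybb1, Crybb3, Grifin, Bfsp2, Cryab and Crym lie at 6.73 or above. Crym is also 1 of the markers that named the Müller glia-like class.

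Cryab was compared with the other small heat shock genes, 7 of 8 of which were in the matrix. In Müller glia-like cells 4 had at least 50 UMIs, and all 4 had a higher value in both rd10 libraries than in WT, as did 5394 of 12404 genes in rd10-vehicle and 4851 of 11945 in rd10-TMB. Hspb1 alone was past 2-fold (4.84% and 3.57% of all genes were), and the intervals of Hspb11 and, in rd10-vehicle, of Hspb2 held 0. Hspb1 (HSP27) had 36.4, 144 and 122 CPM there, log2 differences of 1.97 (1.72 to 2.26) and 1.73 (1.48 to 2.02) from WT and -0.24 (-0.32 to -0.16) between the rd10 libraries. Its main site was elsewhere, at 1039, 1746 and 1663 CPM in endothelial-like cells. Hspb6 had 19.6, 34.5 and 28.1 CPM in Müller glia-like cells and 267, 336 and 287 in cone-like cells. Hspb2, whose gene overlaps Cryab, had 6.02, 9.28 and 11.4 CPM, with log2 differences of 0.56 (-0.041 to 1.36) and 0.86 (0.25 to 1.66) from WT. Hspb11 differed from WT by 0.11 and 0.14.

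The pattern over cell classes put Cryab apart from the other members. Over 35 sums of a cluster in a library (14 clusters, at least 50 cells each, lens-like cells left out), the genes closest to Cryab among 13060 by Pearson's r of log2(CPM + 1) were S100a6 (0.91), a calcium-binding protein, Apoe (0.88), the apolipoprotein made by glia, and Cd9 (0.85), a tetraspanin. In the 23 sums of the rd10 libraries these were 0.85, 0.96 and 0.92. The closest to Cryaa were Crygs (0.94), Cryba2 (0.92) and Crybb2 (0.90), those closest to Crybb2 were Crygs (0.94), Cryaa (0.90) and Cryba4 (0.87), and those closest to Crygs were Crybb2 (0.94), Cryaa (0.94) and Cryba2 (0.88). Cryab itself had r of 0.48 with Cryaa, 0.48 with Crybb2 and 0.51 with Crygs, and 0.19, 0.24 and 0.13 within the rd10 libraries. The sums of a library share its droplets, and the 2 exceptional cells are in them, so these r are descriptions.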

How the data were processed

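Single retinal cells were dissociated with papain and sequenced with 10x Genomics v3 chemistry, 1 library per group. Per the labels and the study's methods, the authors aligned reads with Cell Ranger 6.0.1 to mm10, removed doublets, kept cells with at least 500 genes and clustered them with Seurat 3.2.2. The authors deposited a matrix of natural log values, ln(1 + UMIs per 10000), with the total UMI count, library and cluster of each cell. Whole UMI counts were recovered from both for 100% of 32620606 entries (tolerance 0.001 UMI). Clusters were named from marker lists, 16 by cell type and 5 by number. Levels are summed UMIs of a class scaled to 1e+06 UMIs with exact Poisson intervals, shares have exact Clopper-Pearson intervals, ratios have exact conditional intervals (95%), and these cover counting error only. With 1 library per group no test was made and a 2-fold difference with at least 50 UMIs in the 2 libraries was called. Genes named were the 4 members, lists of other crystallin and small heat shock genes, Lcn2, Gfap, lens markers and the 3 genes most like each member. The members and lists were chosen with earlier results of these data known. Microglia and lens markers of single cells, the 2 cells of over 100 lens crystallin UMIs, other cells with 5 or more UMIs of Cryaa, Crybb2 and Crygs, and glial markers of lens-like cells were looked at after the data were seen. The functions were tested on simulated data. Alternatives covered scaling, depth, filters, sex and lens crystallin load. Python 3.11.15, NumPy 2.4.6, SciPy 1.17.1 and pandas 2.3.3 were used. The labels give 4 mice per library, whereas the study's methods give fewer for rd10.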

Additional observations from a re-analysis of the deposited data

Results flagged for a closer look

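Cryab moved in opposite directions in different clusters under the same contrast, with counting intervals clear of 0 on both sides. Whether the clusters differ was not tested, since each group is 1 library. Values are log2 differences without the 2 cells of over 100 lens crystallin UMIs. Clusters were considered with at least 15 cells in each of the 2 libraries and at least 50 Cryab UMIs in both together.

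For rd10-vehicle over WT, Cryab was lower in astrocyte-like cells (-0.27) and higher in Müller glia-like (0.94), endothelial-like (1.37), ON cone bipolar-like (1.96), cone-like (2.98), rod-like (3.23) and rod bipolar-like cells (3.99). For rd10-TMB over WT, it was lower in astrocyte-like cells (-0.32) and higher in Müller glia-like (1.0), mural-like (1.06), endothelial-like (1.14), ON cone bipolar-like (1.58), cone-like (2.53), rod-like (3.26) and rod bipolar-like cells (3.32). The astrocyte-like WT level rested on 20 cells. The mural-like value rested on 1 rd10-TMB cell with 38 UMIs of Cryaa, Crybb2 and Crygs, and without it was 0.62 with an interval that held 0 (-0.23 to 1.55). Leaving out every cell with 5 or more such UMIs outside the lens-like cluster, the other values from WT kept their sign with intervals clear of 0. The neuron-like and endothelial-like cells of the rd10 libraries also held more UMIs of these 3 genes per cell than those of WT, and the neuron-like cells more Müller glia marker UMIs. The part of either RNA in these Cryab differences was not tested.

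For rd10-TMB over rd10-vehicle, Cryab was higher in Müller glia-like cells (0.064) and lower in cone-like (-0.46), rod bipolar-like (-0.67) and lens-like cells (-0.90). The lens-like value moved to -2.03 without the 2 rd10-TMB cells that held 73.8% of the Cryab UMIs of that class. Those cells were picked by their Cryab, so this fall is by construction. Without cells of 5 or more UMIs of Cryaa, Crybb2 and Crygs the rod bipolar-like value was -0.50. Under the limit of 50 UMIs, microglia-like cells stood at 2.19 (1.20 to 3.55) and cluster 7 at -0.93 (-2.0 to -0.042). The microglia-like value rested on 33 (rd10-TMB) and 9 (rd10-vehicle) UMIs, and that of cluster 7 on 14 and 33.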

How the results depend on the processing

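Of 187 alternative values for 18 results, 125 stayed within the counting interval (or within 1.5 times for a count), 55 moved outside it and 7 changed sign. Values are log2 differences, for Cryab in Müller glia-like cells (glia) or for a member in all cells outside the lens-like cluster (outside). With median-of-ratios size factors Cryab was 1.01 and 2.87 (glia, outside) for rd10-vehicle over WT and 1.09 and 2.82 for rd10-TMB over WT. As UMIs per cell these were 1.45, 3.2, 1.62 and 3.13, and 0.17 and -0.065 between the rd10 libraries. Against WT cells carrying Xist but no Y-linked UMI they were 1.03, 2.42, 1.09 and 2.38. With at least 1000 genes per cell the outside values from WT were 2.56 and 2.53. Without the 5% deepest cells, Cryab was 2.70 outside for rd10-vehicle over WT, 1.07 in glia for rd10-TMB over WT, and 0.083 in glia and -0.092 outside between the rd10 libraries. As a mean over cells, Cryab was 0.99 in glia and 2.77 outside and Crybb2 3.84 for rd10-vehicle over WT, and Cryab, Cryaa, Crybb2 and Crygs were -0.17, -0.69, -0.30 and -0.081 between the rd10 libraries. Thinned, rd10-vehicle over WT was 2.71 for Cryab outside and 4.77 for Crygs, rd10-TMB over WT was 1.06 in glia, and the 4 members were -0.13, -1.02, -0.43 and 0.059 between the rd10 libraries. Without cells of 5 or more lens crystallin UMIs, Cryaa and Crybb2 were 4.42 and 3.33 for rd10-vehicle over WT and the 4 members -0.025, 0.063, 0.22 and 0.19 between the rd10 libraries. Without glial cells with any lens crystallin UMI, or less the Cryaa-scaled lens share, Cryab in glia was 0.039 and 0.10 between the rd10 libraries. In 2 settings chosen after seeing the data, the neuron-like clusters alone gave 3.02 for Cryab and 3.80 for Crybb2 over WT in rd10-vehicle and -0.40, -0.25, 0.064 and -0.082 between the rd10 libraries, and leaving out the 2 cells of over 100 lens crystallin UMIs gave 4.8 for Cryaa and 3.62 for Crybb2 over WT in rd10-vehicle and -0.063, 0.23 and 0.14 for Cryaa, Crybb2 and Crygs between the rd10 libraries. Genes past 2-fold in glia numbered 906 for rd10-vehicle over WT, 639 for rd10-TMB over WT and 69 between the rd10 libraries at 50 UMIs. They were 1488, 1170 and 248 at 20 UMIs, 401, 248 and 15 at 200, and 4438, 4161 and 1957 at 1. The largest Müller glia-like cluster alone is the whole class, so it gave no further value.

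A further setting chosen after seeing the data, without glial cells carrying any of the 10 lens crystallin genes other than Crybb1 and Crybb3, moved no Cryab value outside its counting interval.

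No paired analysis was possible because each group is 1 library. Leaving out a replicate was not run for the same reason, and genotype cannot be told apart from library in the comparisons with WT, nor diet from library between the rd10 libraries. For sex, the values against WT cells carrying Xist but no Y-linked UMI stand above. Cells under 1000 UMIs, 2.79% to 7.77% of a library, left the thinned values.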
